A study of Mus musculus with 30 samples.

Results

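The liver breaks down most of the body's tryptophan through the kynurenine pathway, and part of that flow ends in NAD. Transcripts of 10 genes that carry this route were followed, *Tdo2*, *Afmid*, *Kmo*, *Kynu*, *Haao*, *Acmsd*, *Qprt*, *Inmt*, *Nampt* and *Nadsyn1*. They were chosen by gene symbol, with earlier results of these data known. All 10 were among the 14173 genes of the deposited table and passed the filter on low counts in every comparison. Messenger RNA was counted at its 3′ end in livers of 30 male C57BL6/J mice aged 6 months, 6 on each of 5 diets, with 1 library per mouse.

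The mice were first kept for 2 weeks on Cas-20% or Soy-20%. At 12 weeks of age the Cas-5% mice were moved from Cas-20%, and the Soy-20% + SAA and Soy-10% mice from Soy-20%, while the Cas-20% and Soy-20% mice stayed on theirs. All were kept so for 12 weeks and fasted for 4 h before tissue was taken. Cas-20% was the casein control, with 20% casein, 0.57 g methionine and 0.41 g cysteine per 100 g of diet. Cas-5%, with 5% casein, held 0.15 g and 0.1 g. Soy-20%, with 20% soy, held 0.22 g of each, and Soy-20% + SAA was the same diet with methionine and cysteine added up to 0.58 g and 0.41 g. Soy-10% is the name of the restricted soy diet, which per the labels had 11.5% soy and 0.13 g of each. The restricted diets therefore differed in protein level as well as in protein source. Cas-5% differed from Cas-20%, and Soy-10% from Soy-20% + SAA, in protein as well as in sulfur amino acids (SAA), and the parts of these cannot be told apart. Each diet enters more than 1 comparison, so comparisons share livers and their results are not independent.

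Tryptophan enters the pathway through Tdo2, tryptophan 2,3-dioxygenase, the rate-controlling step in liver, and the formamidase Afmid then releases kynurenine. Kmo, Kynu and Haao carry kynurenine on to an unstable semialdehyde that stands at a fork: Acmsd, a decarboxylase, sends it towards complete oxidation, whereas without that step it closes to quinolinate, which Qprt turns into a precursor of NAD. Nadsyn1 makes NAD at the end of that branch, Nampt carries the rate-controlling step of its salvage from nicotinamide, and Inmt methylates tryptamine and related compounds with a methyl group that derives from methionine.

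Library totals ran from 7694015 to 14565542 counts with a median of 10803734. In Soy-20% + SAA livers 3 to 6 counts rose with the GC content of the last 200 bases of transcripts, by 0.059 to 0.204 log2 units per 10% GC, compared with −0.062 to 0.026 in the other 26 libraries. The slopes of Soy-20% + SAA livers 1 and 2 were −0.029 and −0.026. For the 10 transcripts, calls that rest on that diet are therefore also given without livers 3 to 6. Those of the cell markers are not. Such a fit keeps only livers 1 and 2 of that diet, so a lost call alone does not show a smaller difference. Hepatocyte markers (6 of 6 in the table) were high in every liver, with a summed normalized count of 763970 to 988954. Soy-10% liver 4 had a summed count of 4818 for pancreatic acinar markers, compared with at most 5.75 in the other 29 livers.

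Promoter sequences are shown for *Haao*, *Inmt* and *Tdo2*. *Haao* and *Inmt* were called lower in Cas-5% livers than in Cas-20% and in Soy-10% livers than in Soy-20% + SAA. Their soy calls were lost without Soy-20% + SAA livers 3 to 6 and with each library's GC slope as a covariate. *Acmsd*, which is not shown, was also called lower after both restrictions and kept its soy call in these fits. In Soy-10% against Soy-20% livers edgeR called none of the 10. *Tdo2* was not called lower than control in either restricted diet. The sequences are the 250 bases before the RefSeq start site (GRCm38.p6), 5′ to 3′ on the gene's strand, with motif matches in capitals. RefSeq windows were matched by symbol for 9 of the 10 genes, and *Kynu* had no entry.
*Haao*, chr17:83846791-83847040, minus strand: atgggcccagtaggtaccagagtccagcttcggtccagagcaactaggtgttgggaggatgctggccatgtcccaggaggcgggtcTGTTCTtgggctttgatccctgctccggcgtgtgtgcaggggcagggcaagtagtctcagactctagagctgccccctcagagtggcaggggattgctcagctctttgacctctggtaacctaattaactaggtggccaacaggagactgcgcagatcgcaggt
*Inmt*, chr6:55174991-55175240, minus strand: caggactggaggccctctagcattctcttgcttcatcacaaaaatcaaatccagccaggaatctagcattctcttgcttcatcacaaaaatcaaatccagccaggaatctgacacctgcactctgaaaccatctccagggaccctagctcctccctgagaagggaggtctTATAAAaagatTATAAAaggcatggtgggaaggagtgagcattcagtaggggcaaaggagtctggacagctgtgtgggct
*Tdo2*, chr3:81975729-81975978, minus strand: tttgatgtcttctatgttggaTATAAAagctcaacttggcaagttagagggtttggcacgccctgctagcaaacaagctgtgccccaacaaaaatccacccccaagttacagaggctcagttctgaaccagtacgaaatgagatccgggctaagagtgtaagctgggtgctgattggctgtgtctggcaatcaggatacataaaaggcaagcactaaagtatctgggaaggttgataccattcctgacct

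In *Haao* the capitals mark TGTTCT, the opposite-strand reading of the glucocorticoid receptor motif AGAACA, at 164 to 159 bases before the start. In *Inmt* and *Tdo2* they mark the TATA box core TATAAA, which was added to the search after the sequences had been seen. *Inmt* holds it at 80 to 75 and again at 69 to 64 bases before the start, and *Tdo2* at 229 to 224. Both strands of each window, with the 50 bases after the start, were searched for 6 motifs, and no matches overlapped. AGAACA was in 2 of 9 windows, *Kmo* and *Haao*, and in 19% of all 32851 windows. TATAAA was in 2 of 9 and in 13.6% of all. The amino acid response element core TGATGNAA (3.97% of all windows), the HNF4 site CAAAGTCCA (0.475%), the HNF1 motif GTTAATNAT (0.801%) and the E-box CACGTG (7.15%) were in 0 of 9, which says only that these letters are not in these windows. The printed sequences of *Inmt* and *Tdo2* had 48% and 46.4% GC, with 0 and 3 CG dinucleotides, whereas that of *Haao* had 58.4% GC and 6. Over the same 250 bases of all windows the median was 52.4% GC and 6 CG dinucleotides. The RefSeq start of *Haao* lies 1173 bases inside the gene as GENCODE M21 annotates it, that of *Tdo2* 474 and that of *Inmt* 53.

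Casein restriction was examined first. In Cas-5% livers 7 of the 10 transcripts were called lower than in Cas-20% livers and none was called higher. They were *Afmid*, *Kmo*, *Kynu*, *Haao*, *Acmsd*, *Qprt* and *Inmt*, that is, the enzymes between kynurenine release and quinolinate use, the decarboxylase at the fork and the methyltransferase. Over the whole table edgeR called 24.6% of 12076 genes between these diets, at a threshold of 0.05 on the adjusted p, and 13.2% as lower. In all 7 transcripts every Cas-5% liver was below every Cas-20% liver, which was so for 7.73% of genes tested. The median log2 fold change of the 10 was −0.67 and that of all genes 0.016. In whole liver, fewer cells of a type and less RNA per cell cannot be told apart. Of the 5 stellate and fibroblast markers, *Reln* and *Dcn* were higher in Cas-5% livers, and their list summed to 3776 to 5133 normalized counts in Cas-5% and 3255 to 4101 in Cas-20%. Of the 6 hepatocyte markers, *Alb* and *Hnf4a* were higher and *Serpina1c* was lower, with none at 0. Of the 5 red blood cell markers *Alas2* was lower (log2 fold change −0.67, adjusted p 0.00054). An unadjusted p under 0.05 was found for 4 of the 5 and for 4366 of all 12076 genes. The list median was −0.62, with sums of 11503 to 19812 in Cas-5% and 15728 to 34944 in Cas-20%. The part of these markers in the result was not tested.

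*Acmsd* (chr1:127729413-127767978) had the widest range. Its normalized read count, which is the count divided by the library's size factor, was 137 to 823 in Cas-20% livers with a median of 292, and 43.1 to 89.6 in Cas-5% livers with a median of 61.1. The groups did not overlap, and the controls spread widely, with liver 2 at 823 and the next highest, liver 1, at 460. The log2 fold change was −2.50 ± 0.44 (SE, n = 6 per diet), or 5.67-fold lower, with an adjusted p of 0.0019. Without Cas-20% liver 2 it was −2.10, and over all fits that left out 1 liver it lay between −2.68 and −2.10, called in 12 of 12.

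*Haao* (chr17:83831156-83847963), the dioxygenase that makes the semialdehyde, was at 4741 to 6001 normalized counts in Cas-20% livers (median 5267) and at 2538 to 3185 in Cas-5% livers (median 2607). It fell by 0.93 ± 0.08 on the log2 scale, or 1.91-fold, with an adjusted p of 1.2e-07. *Qprt* (chr7:127107114-127122226), the quinolinate phosphoribosyltransferase on the NAD side of the fork, was at 1546 to 2072 (median 1810) in Cas-20% and 916 to 1238 (median 1071) in Cas-5% livers. The transcripts of *Acmsd* and *Qprt*, 1 on each side of the fork, were thus both lower after casein restriction. That of *Nadsyn1*, at the end of the NAD branch, was not called. *Qprt* fell by 0.74 ± 0.09 on the log2 scale, or 1.67-fold, with an adjusted p of 8.2e-06.

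*Inmt* (chr6:55170626-55175043) was at 5543 to 6605 normalized counts in Cas-20% livers (median 6210) and at 2300 to 3140 in Cas-5% livers (median 2439). The lowest control liver had more than the highest restricted liver by a wide margin, and the log2 fold change was −1.20 ± 0.09, or 2.3-fold lower, with an adjusted p of 1.1e-08.

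*Afmid* (chr11:117825924-117839908) was at 131 to 288 normalized counts in Cas-20% livers (median 152) and 80.7 to 127 in Cas-5% livers (median 101), a log2 fold change of −0.73 ± 0.18 with an adjusted p of 0.0067. The control value of 288 was that of liver 2, and with 1 liver left out the log2 fold change lay between −0.80 and −0.53. *Kmo* (chr1:175620381-175662116), the monooxygenase that hydroxylates kynurenine, was at 1896 to 2225 (median 1976) in Cas-20% and 1179 to 1613 (median 1432) in Cas-5% livers. *Kynu* (chr2:43555329-43682715), the kynureninase that cleaves its product, was at 1143 to 1485 (median 1395) and 724 to 964 (median 878). Neither gene had overlapping groups. *Kmo* fell by 0.50 ± 0.08 and *Kynu* by 0.62 ± 0.08 on the log2 scale, with adjusted p of 7.3e-05 and 1.6e-05.

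The 3 transcripts that were not called were *Tdo2*, *Nampt* and *Nadsyn1*. *Tdo2* (chr3:81957090-81976202) was at 14512 to 17588 normalized counts in Cas-20% livers (median 16898) and 13310 to 15567 in Cas-5% livers (median 15104), and the groups overlapped. Its log2 fold change was −0.14 with a 95% interval of −0.30 to 0.018 and an adjusted p of 0.19. *Nampt* (chr12:32819545-32853349), the salvage enzyme, was at 304 to 469 (median 407) and 302 to 391 (median 368), with an interval of −0.34 to 0.077 and an adjusted p of 0.37. *Nadsyn1* (chr7:143795584-143822849), the NAD synthetase, was at 88.1 to 111 (median 94.3) and 87.4 to 112 (median 94.5). Its interval was −0.18 to 0.22 with an adjusted p of 0.91, and its spread between livers, 8% and 9.7% of the mean, was about the counting error of 10.3% and 10%, so that a difference within that interval was not detectable at this depth.

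**Figure D1:**
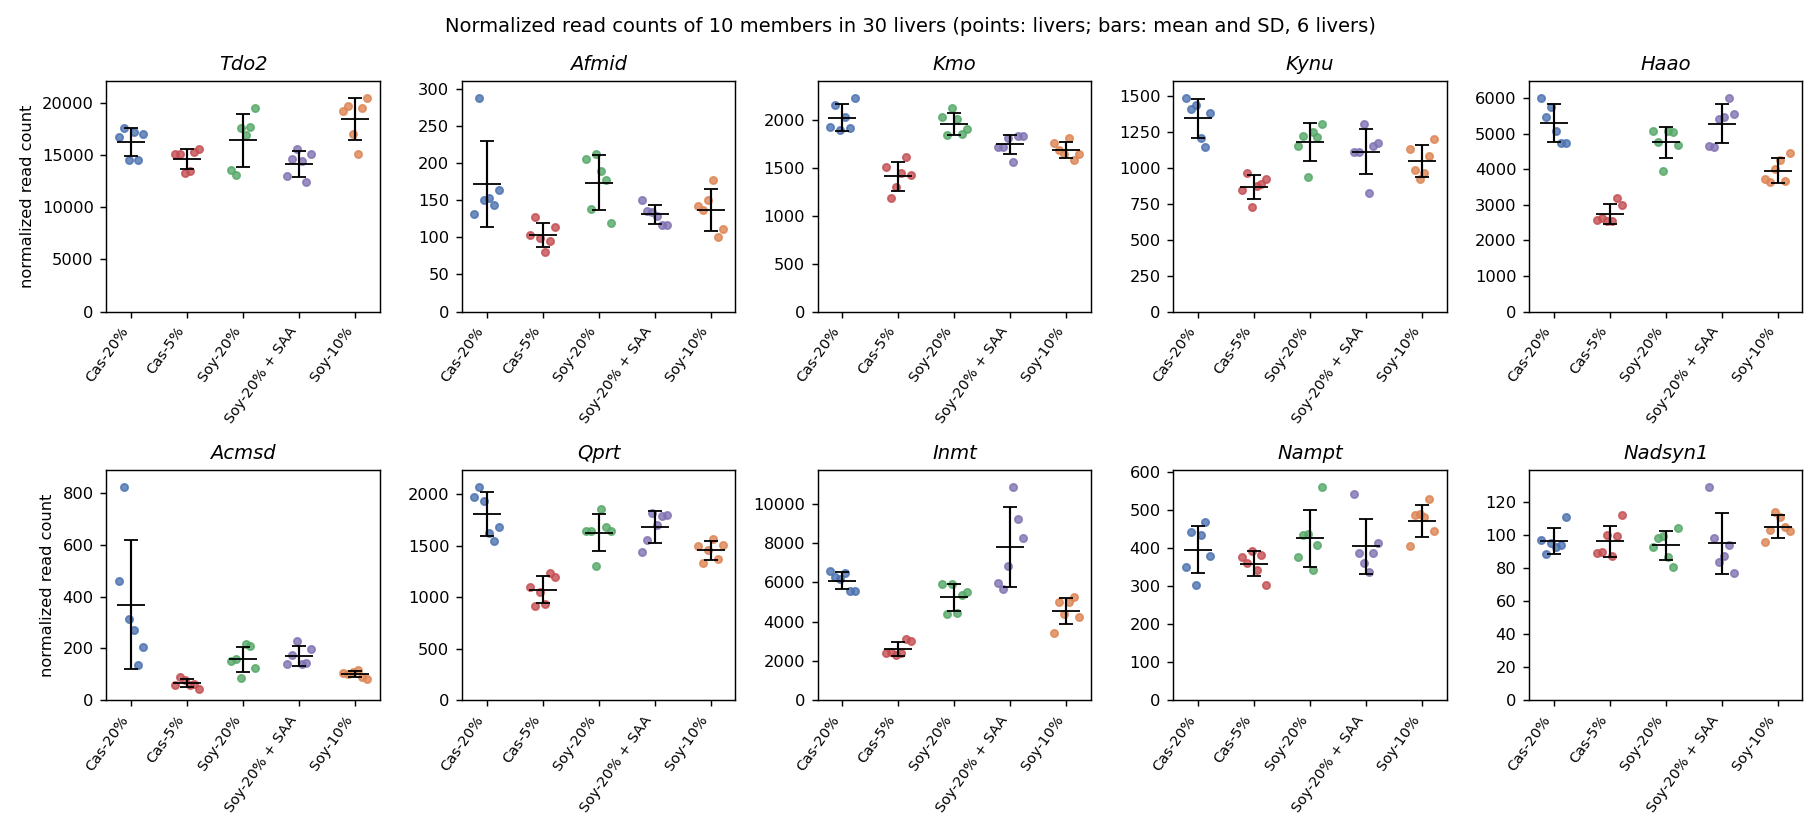
Normalized read counts (y axis, from 0) of the 10 transcripts in each of 30 livers by diet (x axis), with points for livers and bars for the mean and SD of 6 livers. For *Haao*, *Acmsd*, *Qprt* and *Inmt* the Cas-5% livers lie below all Cas-20% livers, and for *Inmt* the Soy-20% + SAA livers spread from 5651 to 10873.

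Soy restriction was examined against Soy-20% + SAA, the soy control whose methionine and cysteine content is near that of Cas-20%. Of the 10 transcripts 3 were called lower in Soy-10% livers, *Haao*, *Acmsd* and *Inmt*, and *Tdo2* was called higher. Of 11983 genes 15.7% were called in either direction. For those 3 every Soy-10% liver was below every control liver, which was so for 3.31% of genes tested. The median log2 fold change was −0.07 for the 10 and −0.0097 for all genes. Without Soy-20% + SAA livers 3 to 6, *Acmsd* and *Tdo2* were called, beside 331 of all 12483 genes. With each library's GC slope as a covariate only *Acmsd* was, beside 381 of all 11983 genes. Among the cell markers *Sox9*, the 1 cholangiocyte marker tested, was lower (log2 fold change −0.62, adjusted p 0.0012), with list sums of 169 to 215 in Soy-10% and 231 to 344 in Soy-20% + SAA. *Apoa1* of the 6 hepatocyte markers was lower (−0.31, 0.039). *Marco* of the 8 Kupffer cell and macrophage markers was higher (2.35, 0.044), with list sums of 2720 to 4847 and 2693 to 3589. *Marco* was at 62.6 to 670 normalized counts in Soy-10% livers, with a median of only 91.5, and at 15.5 to 47.9 in Soy-20% + SAA livers. The part of these markers in the result was not tested.

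*Acmsd* was at 138 to 229 normalized counts in Soy-20% + SAA livers (median 158) and at 83.6 to 115 in Soy-10% livers (median 102). The groups did not overlap. The log2 fold change was −0.77 ± 0.13, or 1.71-fold lower, with an adjusted p of 0.002. It was −0.64 ± 0.14 without Soy-20% + SAA livers 3 to 6 and −0.75 ± 0.17 with the GC slope, each with an adjusted p of 0.02.

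*Tdo2* was at 12432 to 15617 normalized counts in Soy-20% + SAA livers (median 14546) and at 15124 to 20497 in Soy-10% livers (median 19362). Of the 6 Soy-10% livers 5 were above every control. The log2 fold change was 0.38 ± 0.08, or 1.3-fold higher, with an adjusted p of 0.0091. It was 0.42 ± 0.11 without livers 3 to 6 (adjusted p 0.043) and 0.35 ± 0.11 with the GC slope (adjusted p 0.073).

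*Haao* and *Inmt* were lower in every Soy-10% liver than in any Soy-20% + SAA liver, but neither was called without livers 3 to 6 of the control. *Haao* was at 4620 to 5990 normalized counts in Soy-20% + SAA livers (median 5446) and at 3639 to 4468 in Soy-10% livers (median 3867), a log2 fold change of −0.42 ± 0.08 with an adjusted p of 0.0042. It was −0.24 ± 0.09 without livers 3 to 6 (adjusted p 0.19) and −0.25 ± 0.08 with the GC slope (adjusted p 0.09). *Inmt* was at 5998 and 5651 in Soy-20% + SAA livers 1 and 2, and at 6826, 10873, 9244 and 8243 in livers 3 to 6. Soy-10% livers had 3411 to 5247 (median 4677). The log2 fold change of −0.78 ± 0.16 (adjusted p 0.0072) was −0.37 ± 0.13 without livers 3 to 6 (adjusted p 0.19) and −0.38 ± 0.14 with the GC slope (adjusted p 0.16).

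The other 6 transcripts were not called after soy restriction. For *Qprt* the log2 fold change was −0.21 with an adjusted p of 0.055, and it was called without Soy-20% + SAA liver 1 or liver 2, where the adjusted p reached 0.014. *Nampt* had 0.22 with an adjusted p of 0.15 and was called without Soy-20% + SAA liver 1, which had the highest count of its group, at 0.32 with an adjusted p of 0.01. *Kmo* had −0.048 with a 95% interval of −0.18 to 0.085. *Kynu* had −0.089 (−0.30 to 0.12), *Afmid* 0.064 (−0.20 to 0.33) and *Nadsyn1* 0.14 (−0.11 to 0.40). The sign for *Afmid* and *Nadsyn1* turned without livers 3 to 6, to −0.074 and −0.13.

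**Figure D2:**
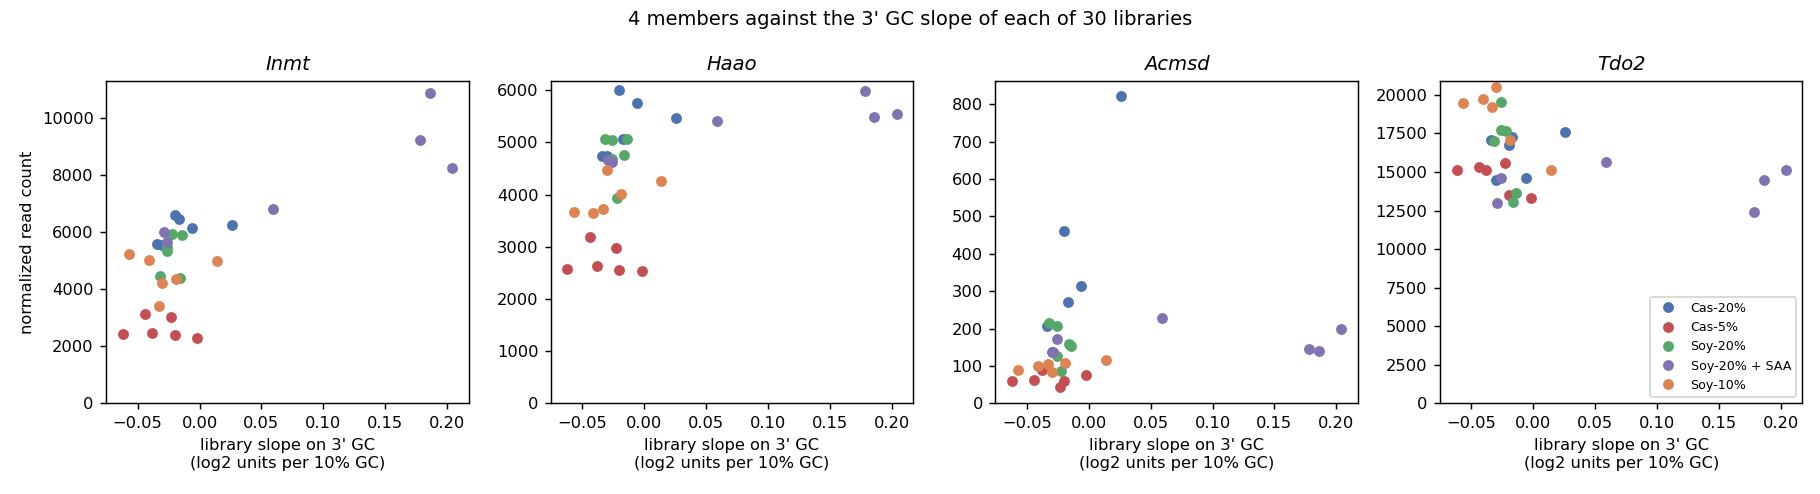
Normalized read counts (y axes, from 0) of *Inmt*, *Haao*, *Acmsd* and *Tdo2* against the slope of each library on transcript 3′ GC content (x axes, log2 units per 10% GC), 1 point per liver, coloured by diet. The 4 libraries at the right, between 0.059 and 0.204, are Soy-20% + SAA livers 3 to 6, which hold the 4 highest *Inmt* counts.

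Soy-20%, which has the protein of the control and no added SAA, gave a second reference. Against it edgeR called 0 of the 10 transcripts in Soy-10% livers and 1.0% of all 11897 genes. An unadjusted p under 0.05 was found for 6 transcripts and for 1413 of all genes. DESeq2 called 3, *Acmsd*, *Haao* and *Kmo*, and 216 of all genes. The median log2 fold change was −0.19 for the 10 and −0.0004 for all genes. *Acmsd* was at 86.4 to 215 normalized counts in Soy-20% livers (median 155), overlapping Soy-10%, with a log2 fold change of −0.66 ± 0.18 and an adjusted p of 0.13. *Haao* was at 3942 to 5073 (median 4902) with −0.27 ± 0.07 and an adjusted p of 0.092. Soy-20% liver 3 had the lowest count of both genes in its group, and without it both were called, with an adjusted p of 0.0051 for *Acmsd* and 0.02 for *Haao*. *Kmo* was at 1837 to 2117 (median 1956) in Soy-20% and 1585 to 1814 (median 1665) in Soy-10% livers, which did not overlap (so for 0.748% of genes tested), with −0.21 ± 0.06 and an adjusted p of 0.088. *Inmt*, at 4381 to 5927 in Soy-20% livers, had −0.21 ± 0.10 with an adjusted p of 0.44, and *Tdo2*, at 13077 to 19524, had 0.17 ± 0.10 with an adjusted p of 0.53.

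**Figure D3:**
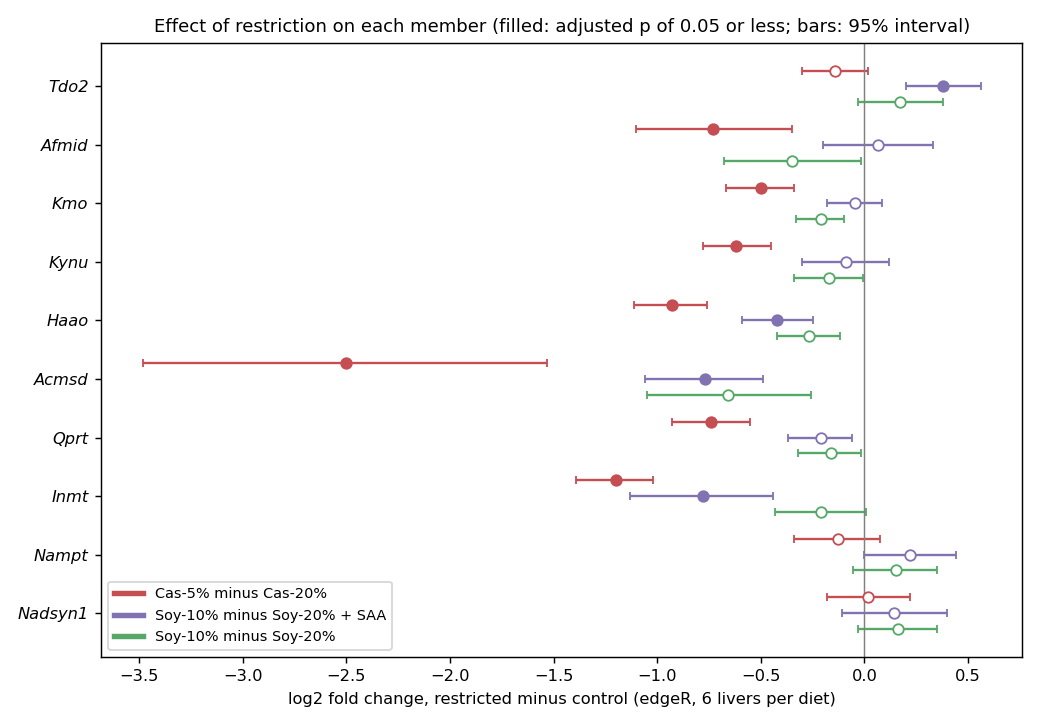
Log2 fold change of each transcript (x axis, restricted minus control diet) after casein restriction and after soy restriction against either soy control, with 95% intervals from edgeR and filled points at an adjusted p of 0.05 or less. The casein points lie furthest to the left for *Acmsd*, at −2.50, and *Inmt*, at −1.20, and no point is filled for Soy-10% against Soy-20%.

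Added SAA and the protein source of the control diets were compared next, and edgeR called 0 of the 10 transcripts in either. Between Soy-20% + SAA and Soy-20% livers 4 transcripts had an unadjusted p under 0.05, as had 2820 of all 11932 genes. DESeq2 called 1, *Inmt*, and 873 of all genes, whereas edgeR called 0.545% of all genes. The median log2 difference was −0.04 for the 10 and 0.004 for all genes. *Inmt* was 0.56 ± 0.15 higher on the log2 scale with SAA added (adjusted p 0.072), and 0.15 ± 0.12 without livers 3 to 6. It was called without Soy-20% + SAA liver 1 or liver 2, as was *Afmid* (log2 difference −0.42, adjusted p 0.099) without liver 1. *Kmo*, at 1560 to 1832 normalized counts with SAA and 1837 to 2117 without, did not overlap (1.19% of genes tested), with −0.18 ± 0.07 and an adjusted p of 0.13.

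Between Cas-20% and Soy-20% + SAA livers 6 transcripts had an unadjusted p under 0.05, as had 3078 of all 11988 genes. DESeq2 called *Acmsd* and *Kmo*, and 1130 of all genes, whereas edgeR called 2.34% of all genes. The median log2 difference was 0.15 for the 10 and −0.00018 for all genes. *Acmsd* was 2.16-fold higher on average in Cas-20% livers, a log2 difference of 1.11 with a 95% interval of 0.28 to 1.94 and an adjusted p of 0.1. Without Cas-20% liver 2 the difference was 0.69, and without Soy-20% + SAA livers 3 to 6 it was 1.25 (adjusted p 0.81). *Kmo* was 0.22 ± 0.07 higher on the log2 scale in Cas-20% livers (adjusted p 0.083; 0.23 and 0.68 without livers 3 to 6), where each of the 6 was above every Soy-20% + SAA liver, as for 1.5% of genes tested. *Inmt* was 0.35 ± 0.14 lower in Cas-20% livers (log2 difference −0.35, adjusted p 0.13). That difference was 0.063 without Soy-20% + SAA livers 3 to 6 and was called without liver 1 or liver 2 of that diet, where the adjusted p reached 0.049.

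The restricted diets themselves differed. In Cas-5% livers 8 of the 10 transcripts were called lower than in Soy-10% livers and none was called higher. Of 12041 genes 10.7% were called in either direction and 6.13% as lower. The median log2 difference was −0.39 for the 10 and 0.014 for all genes. *Inmt* (−0.77 ± 0.10, adjusted p 0.00013), *Haao* (−0.51 ± 0.07, 7.8e-05), *Qprt* (−0.42 ± 0.07, 0.00081) and *Nampt* (−0.38 ± 0.08, 0.0021) did not overlap between the diets, which was so in this direction for 4.09% of genes tested. *Nampt* was at 302 to 391 normalized counts in Cas-5% livers and 406 to 528 in Soy-10% livers (median 484). *Acmsd* (−0.62 ± 0.14, adjusted p 0.0055) and *Tdo2* (−0.32 ± 0.07, 0.0067) were lower in 5 and 4 of 6 Cas-5% livers than in any Soy-10% liver.

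*Kmo* (log2 difference −0.24, adjusted p 0.029) and *Kynu* (−0.25, 0.034) were near the threshold. *Kmo* was not called without Cas-5% liver 2 or 3 or Soy-10% liver 1, 2 or 4, where the adjusted p reached 0.071. *Kynu* was not called without Cas-5% liver 1, 3 or 4 or Soy-10% liver 1, 5 or 6, where it reached 0.093. *Afmid* (−0.39, adjusted p 0.051) was not called but was called without Cas-5% liver 2 or 6 or Soy-10% liver 5 or 6. *Nadsyn1* had −0.10 with a 95% interval of −0.30 to 0.094. Of the 5 stellate and fibroblast markers 4 were higher in Cas-5% livers, with list sums of 3776 to 5133 in Cas-5% and 3437 to 4003 in Soy-10%. *Serpina1c* (log2 difference −0.34) of the hepatocyte, *Alas2* (−0.51) of the red blood cell and *Cidec* (−2.93), the 1 adipocyte marker tested, were lower. The part of these markers in the differences was not tested.

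The casein effect and the soy effect were then compared directly, as the difference of both log2 fold changes over 24 livers with Soy-20% + SAA as the soy control. The difference was called for 7 of the 10 transcripts, all of them negative, that is, with the casein effect lower. Of 12532 genes 8.16% were called in either direction and 5.07% as negative. The 3 not called, *Inmt* (−0.43), *Nampt* (−0.36) and *Nadsyn1* (−0.13, interval −0.44 to 0.17), had negative values too. The median was −0.52 for the 10 and 0.0064 for all genes. *Acmsd* had −1.73 (adjusted p 0.023), *Haao* −0.52 (0.0071), *Qprt* −0.53 (0.008), *Kmo* −0.46 (0.0052), *Kynu* −0.53 (0.013), *Afmid* −0.80 (0.029) and *Tdo2* −0.53 (0.0055). *Haao* and *Qprt* were also called with the GC slope, without Soy-20% + SAA livers 3 to 6 and when Soy-20% took the control's place, with values of −0.70 to −0.58.

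The other calls of this difference varied with the soy control. Against Soy-20% 5 transcripts were called, beside 732 of all 12450 genes, 436 of them as negative. The 5 were *Haao* at −0.67, *Qprt* at −0.58, *Kynu* at −0.45, *Acmsd* at −1.85 and *Inmt* at −1.0. *Inmt*, which was not called with Soy-20% + SAA (−0.43, adjusted p 0.14), then had an adjusted p of 3.5e-05. With Soy-20% + SAA as the control *Inmt* was called at −0.75 with the GC slope (0.0061). It was also called at −0.84 without livers 3 to 6 of that diet, and at −0.54 without liver 4 alone. *Kmo* (−0.30, adjusted p 0.059), *Tdo2* (−0.32, 0.14) and *Afmid* (−0.39, 0.43) were not called against Soy-20%. *Afmid* was also lost without Cas-5% liver 4, Soy-20% + SAA liver 5 or Soy-10% liver 3 or 4 (adjusted p up to 0.055), and *Acmsd* without Soy-20% + SAA livers 3 to 6 (−1.87, 0.14). Without those livers *Tdo2* (−0.56, 0.022), *Kmo* (−0.48, 0.029) and *Kynu* (−0.53, 0.035) were called and *Afmid* (−0.66, 0.28) was not. With the GC slope *Afmid* (−0.81, 0.067) and *Kynu* (−0.47, 0.051) were not called. *Nampt*, at −0.36 with an adjusted p of 0.13, was called without Soy-20% + SAA liver 1 (0.019).

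**Figure D4:**
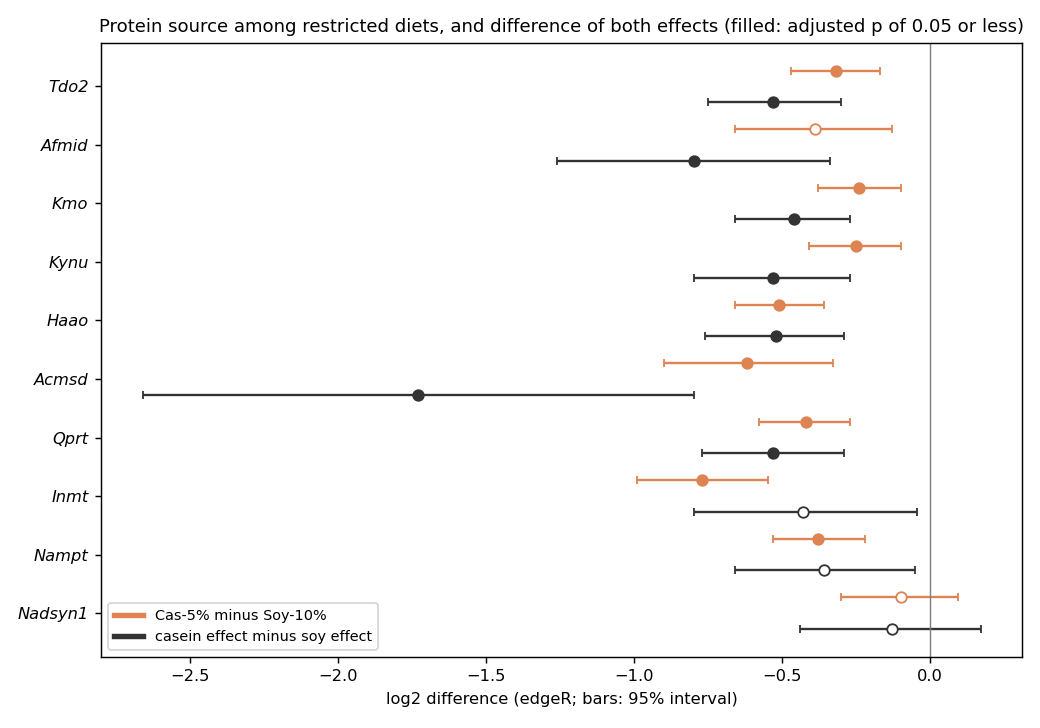
Log2 difference of each transcript (x axis) between the restricted diets, Cas-5% minus Soy-10%, and of the casein effect minus the soy effect with Soy-20% + SAA as the control, with 95% intervals from edgeR and filled points at an adjusted p of 0.05 or less. Only the *Nadsyn1* intervals cross 0.

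Over the 5 diets the highest diet mean was 5.65 times the lowest for *Acmsd*, 2.97 times for *Inmt* and 1.93 times for *Haao*, and 1.12 times for *Nadsyn1*. *Acmsd* averaged 368 ± 248 (SD) in Cas-20%, 171 ± 37.4 in Soy-20% + SAA, 158 ± 48.9 in Soy-20%, 99.9 ± 11.7 in Soy-10% and 65.2 ± 16 in Cas-5%, and its first 2 steps, from Cas-20% to Soy-20% + SAA and on to Soy-20%, were within 1 SD. *Inmt* was at 7806 ± 2027 in Soy-20% + SAA and at 6100 ± 448 in Cas-20%, a step within 1 SD. It then ran through 5255 ± 685 in Soy-20% and 4544 ± 682 in Soy-10% to 2624 ± 365 in Cas-5%. Its highest mean and the ratio of 2.97 take in Soy-20% + SAA livers 3 to 6, the libraries that rose with GC content. Livers 1 and 2 of that diet, at 5998 and 5651, were below the Cas-20% mean. *Haao* was at 5295 ± 530 and 5286 ± 539 in Cas-20% and Soy-20% + SAA, and then at 4762 ± 435 in Soy-20%, steps that were within 1 SD, followed by 3962 ± 346 in Soy-10% and 2745 ± 272 in Cas-5%. *Qprt* had the same lowest diet, with 1072 ± 132 in Cas-5% and 1454 ± 88.4 in Soy-10%, while its 3 control diets, at 1628 to 1807, stood within 1 SD of their neighbours. *Tdo2* and *Nampt* had another order, with Soy-10% highest at 18522 ± 2019 and 472 ± 42, and neither was beyond 1 SD of Soy-20%.

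The genes whose pattern over the 30 livers was nearest, by the root mean square difference of centred log2 CPM (counts scaled to library size) among 12033 genes, were *Ass1* (0.36), *Got1* (0.41) and *Gls2* (0.44) for *Acmsd*, all enzymes of amino acid nitrogen. For *Inmt* they were *Ftcd* (0.20), *Pxmp2* (0.25) and *Cryzl2* (0.25), and for *Haao* *Qdpr* (0.08), *Selenbp1* (0.14) and *Aldh7a1* (0.14). *Ass1*, the urea cycle enzyme argininosuccinate synthase, averaged 8297 ± 2475 in Cas-20% and 1563 ± 229 in Cas-5%, with 5150 ± 703 in Soy-20% + SAA and 2806 ± 393 in Soy-10%. *Qdpr*, which regenerates tetrahydrobiopterin, averaged 7394 ± 922, 3460 ± 302, 7103 ± 1013 and 5509 ± 409 in the same diets. Among the 10 themselves *Haao* and *Qprt* were nearest, at 0.13.

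Other genes of tryptophan and NAD metabolism were read from 6 lists, also chosen with earlier results of these data known, with 41 genes tested in most comparisons. After casein restriction 20 of 41 were called, 6 higher and 14 lower, beside 24.6% of all genes. After soy restriction 11 of 41 were called, 5 higher and 6 lower, beside 15.7%. With the GC slope 1 of 41, *Aox1*, was called, beside 381 of all 11983 genes. It was also the 1 called without Soy-20% + SAA livers 3 to 6, beside 331 of all 12483 genes.

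*Nnmt* had the widest change of these genes. It methylates nicotinamide with a methyl group from methionine and so takes it out of NAD salvage. It was at 529 to 1534 normalized counts in Cas-20% livers (median 861) and at 22.9 to 38.6 in Cas-5% livers (median 27.6), which did not overlap. The log2 fold change was −4.95 ± 0.31, or 30.8-fold lower, with an adjusted p of 6.5e-07.

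In Soy-10% livers *Nnmt* was at 74.1 to 291 (median 110), compared with 333 to 645 (median 448) in Soy-20% + SAA and 315 to 584 (median 444) in Soy-20%, and again the groups did not overlap. Against Soy-20% + SAA the log2 fold change was −1.70 ± 0.34 (adjusted p 0.0095), but −1.31 (0.31) without livers 3 to 6 and −1.50 (0.12) with the GC slope. Against Soy-20% it was −1.62 ± 0.34 (0.064). *Nnmt* was 5.06-fold lower in Cas-5% than in Soy-10% livers (adjusted p 0.0049), and its casein effect exceeded its soy effect, with a difference of −3.26 ± 0.48 (0.00052).

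*Aox1*, an aldehyde oxidase that also oxidizes methylated nicotinamide, was higher in both restricted diets. It was at 276 to 455 in Cas-20% and 558 to 735 in Cas-5% livers, 0.92 ± 0.10 higher on the log2 scale with an adjusted p of 2.5e-06. After soy restriction it was at 712 to 845 in Soy-10% livers and 305 to 547 in Soy-20% + SAA livers, 0.89 ± 0.13 higher (0.00079), and 0.59 higher (0.0023) without livers 3 to 6. In Soy-20% livers it was at 538 to 764, overlapping Soy-10%, and that difference of 0.23 had an adjusted p of 0.22. Of the other 12 genes of NAD use tested after casein restriction, *Sirt7* (−0.35) and *Sirt5* (−0.39), both NAD-dependent deacylases, were lower and 10 were not called.

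Of the 5 genes of the kynurenine side branches tested, 3 were lower after casein restriction and 2 higher. *Ido2*, a second enzyme that opens the tryptophan ring, fell from 664 ± 39.9 to 474 ± 51.2 normalized counts, a log2 fold change of −0.47 with an adjusted p of 0.00014. The transaminases that make kynurenic acid went both ways, with *Got2* (−0.48) and *Aadat* (−0.42) lower and *Kyat3* (0.57) higher. After soy restriction *Got2* alone was called (−0.48, adjusted p 0.0056), and it was not without Soy-20% + SAA livers 3 to 6 (−0.18, 0.27).

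At the glutaryl-CoA end, where oxidation past the Acmsd step joins that of lysine, 4 of 7 genes were lower after casein restriction and none was higher. *Gcdh*, glutaryl-CoA dehydrogenase, fell by 0.74 ± 0.08 on the log2 scale (adjusted p 1.5e-06) and *Dhtkd1*, a subunit of the complex that makes glutaryl-CoA, by 0.92 ± 0.15 (0.00026). *Echs1* (−0.42) and *Dlst* (−0.45) were lower as well. After soy restriction *Echs1*, *Gcdh* and *Dlst* were lower, by 0.25 to 0.38 on the log2 scale, and *Acat1* was 0.83 higher. None of the 4 was called without Soy-20% + SAA livers 3 to 6, where *Acat1* had 0.19. The casein effect was lower than the soy effect for *Gcdh* (−0.50, adjusted p 0.0052) and *Dhtkd1* (−1.08, 0.0053), and that of *Dhtkd1* was not called without Soy-20% + SAA livers 3 to 6 (−0.67, 0.14). *Dhtkd1* was the 1 gene of the 6 lists called between the control diets, 0.94 higher in Cas-20% than in Soy-20% + SAA livers (0.021), while 0 were called with the GC slope or without livers 3 to 6, 6 with DESeq2 and 12 with all 30 livers in the model.

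Of the 3 genes tested of the serotonin and tryptamine branch, the monoamine oxidase *Maob* was lower after casein restriction (−0.75, adjusted p 6.4e-05) and *Maoa* higher (0.39, 0.013), and *Maoa* was higher after soy restriction (0.48, 0.013, and 0.41, 0.21 without livers 3 to 6). Of the 7 that make NAD and NADP from other precursors, the mitochondrial NAD carrier *Slc25a51* (−0.60, 0.00037) and the NAD kinase *Nadk* (−0.19, 0.036) were lower after casein restriction, while with the GC slope *Nadk* (−0.19, 0.059) and *Maoa* (0.31, 0.052) were not called. *Nadk2*, the mitochondrial NAD kinase, was higher after soy restriction (0.51, 0.006, and 0.23, 0.28 without livers 3 to 6). Of the 5 tryptophan transporters, *Slc7a5* and *Slc3a2*, the subunits of the large neutral amino acid transporter, were higher after casein restriction. *Slc3a2* rose from 476 to 598 normalized counts in Cas-20% livers to 716 to 882 in Cas-5% livers (0.57, adjusted p 1.4e-05). *Slc7a5* was at 4 to 9.97 and 13.6 to 37.6 (1.67 ± 0.32, 0.00071), from at most 38 reads per liver, and *Slc16a10* was lower (−0.34, 0.0097).

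**Figure D5:**
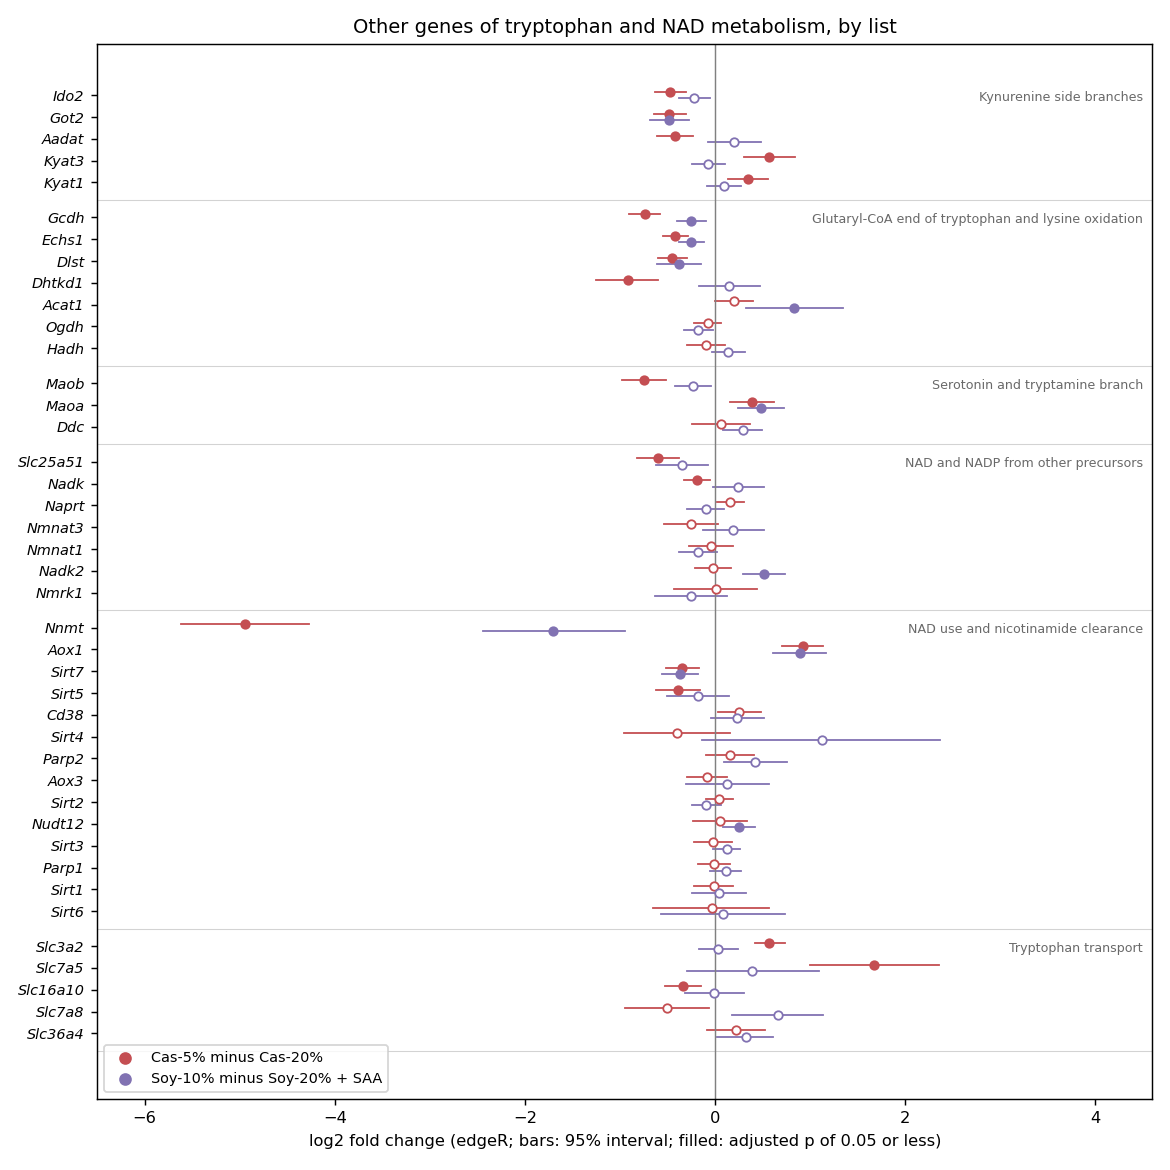
Log2 fold change (x axis) of 41 other genes of tryptophan and NAD metabolism, grouped by list, after casein restriction and after soy restriction against Soy-20% + SAA, with 95% intervals from edgeR and filled points at an adjusted p of 0.05 or less. *Nnmt* stands furthest from 0, at −4.95 and −1.70, and *Aox1* lies at 0.92 and 0.89.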

How the data were processed

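The data are liver RNA counts of 30 mice, 6 per diet, grouped as labelled. The authors prepared libraries with the Lexogen QuantSeq 3′ kit, sequenced them on a NextSeq 500 and mapped and counted them on the Bluebee platform. The deposited raw counts are reads per gene, without normalization. The deposited normalized signal is the same counts divided by size factors with DESeq2 1.30 in R 4.0.3. The aligner is not given in the sources used here. Gene coordinates equal GENCODE M21 on GRCm38. A 3′ count reads transcript ends only, so levels of different genes were not compared.

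Raw counts were tested in R 4.3.3 with edgeR 4.0.16 (quasi-likelihood, robust, two-sided), TMM factors, filterByExpr and Benjamini-Hochberg adjustment over all genes tested, called at 0.05, on only the diets compared. The casein effect minus the soy effect used 24 livers. Intervals are 95%. The script was tested on simulated counts. Alternatives were DESeq2 1.42.0, its size factors in edgeR, no filter, all 30 livers, a replicate block, the library GC slope as a covariate, fits without Soy-20% + SAA livers 3 to 6, Soy-20% as the soy control, each liver left out and, chosen after seeing the data, edgeR without robust estimation. Tables and figures were made in Python 3.11.15 with numpy 2.4.6, pandas 2.3.3, scipy 1.17.1 and matplotlib 3.10.9. Totals of 7694015 to 14565542 counts per library leave a counting error of about 10% for *Nadsyn1* and about 0.8% for *Tdo2*.

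The genes and lists were chosen with earlier results of these data known. All 10 members are named, with at most 4 called genes per list and comparison, those of smallest adjusted p, and the 3 nearest genes of the 3 members of widest range. Marker lists (hepatocyte, Kupffer cell and macrophage, other leukocyte, endothelial, stellate and fibroblast, cholangiocyte, red blood cell, pancreatic acinar and adipocyte) were read for other cells. One promoter sequence is not reported here.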

Additional observations from a re-analysis of the deposited data

Results flagged for a closer look

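A value stood apart from its group by Dixon's criterion in 3 of 50 groups of 6 livers, and chance gives about 1 in 20. They were *Afmid* in Cas-20% liver 2, with 288 normalized counts, *Haao* in Soy-20% liver 3, with 3942, and *Nampt* in Soy-20% + SAA liver 1, with 543.

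The casein effect minus the soy effect passed its test in edgeR for 7 transcripts: −0.53 on the log2 scale for *Tdo2*, −0.80 for *Afmid*, −0.46 for *Kmo*, −0.53 for *Kynu*, −0.52 for *Haao*, −1.73 for *Acmsd* and −0.53 for *Qprt*. *Tdo2* stood on either side of 0, with −0.14 after casein restriction (not called) and 0.38 after soy restriction (called).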

How the results depend on the processing

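After casein restriction 7 transcripts were called under every alternative run, leave-one-out fits included. The number called after soy restriction, 4, was 5 with DESeq2, 1 with the GC slope, 2 without Soy-20% + SAA livers 3 to 6 and 4 to 6 with 1 liver left out. Against Soy-20% it was 3 with DESeq2 and 0 to 2 with 1 liver left out. Between Soy-20% + SAA and Soy-20% it was 1 with DESeq2, 1 with all 30 livers in the model and 0 to 2 with 1 liver left out. Between Cas-20% and Soy-20% + SAA it was 2 with DESeq2, 4 with all 30 livers and 0 to 1 with 1 liver left out. Over all genes the calls after soy restriction were 1880, 2379 with DESeq2, 381 with the GC slope and 331 without livers 3 to 6. Against Soy-20% they were 119, and 216 with DESeq2. Calls over all genes between Soy-20% + SAA and Soy-20% were 65, 873 with DESeq2, 1768 with all 30 livers and 0 with the GC slope. Between Cas-20% and Soy-20% + SAA they were 281, 1130, 2298 and 6. For the difference of effects they were 1023, 547 with the GC slope and 280 without livers 3 to 6. The cause was not tested.

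Of 680 values of single transcripts under alternatives, 609 kept direction and call, 17 lost the call, 26 gained it and 28 changed sign, none of them called. With the GC slope the sign turned for *Afmid* (−0.0015) and *Nadsyn1* (−0.046) after soy restriction, *Qprt* (−0.064) and *Nampt* (0.062) with SAA added, *Inmt* (0.019) and *Nadsyn1* (−0.18) between controls, and *Nadsyn1* (0.029) in the difference of effects. Without Soy-20% + SAA livers 3 to 6 it turned for *Afmid* (−0.074) and *Nadsyn1* (−0.13) after soy restriction, *Haao* (−0.034), *Acmsd* (−0.02), *Qprt* (−0.12) and *Nampt* (0.13) with SAA added, *Inmt* (0.063) and *Nadsyn1* (−0.25) between controls, and *Nadsyn1* (0.14) in the difference. DESeq2 and its size factors turned *Haao* between controls (−0.0037 and −0.0036). With 1 liver left out the value crossed 0 for *Nadsyn1* after casein restriction (−0.03 to 0.058), *Afmid* after soy restriction (−0.023 to 0.14), *Acmsd* (−0.018 to 0.22), *Qprt* (−0.018 to 0.08), *Nampt* (−0.19 to 0.0084) and *Nadsyn1* (−0.11 to 0.069) with SAA added, and *Haao* (−0.036 to 0.035), *Nampt* (−0.091 to 0.077) and *Nadsyn1* (−0.029 to 0.13) between controls.

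Replicate numbers did not pair the livers: correlations of same-numbered livers ran from −0.19 to 0.20, 6 of 36 were over 0.1, and 7 livers were closest to their own number. With the replicate as a block, 7 transcripts were called after casein and 4 after soy restriction, 0 in the 3 control comparisons, 8 between the restricted diets and 7 for the difference, and *Nadsyn1* turned to −0.0055 with SAA added.

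The counting error per liver of *Nadsyn1*, *Acmsd* and *Afmid* was 5.2% to 12.3% of the count. The spread of *Nadsyn1* between livers was near or below that error, except in Soy-20% + SAA (19.4% against 10%). For *Acmsd* and *Afmid* the spread was above the error in every diet. In Cas-20% livers it was 67.2% against 5.2% for *Acmsd* and 33.6% against 7.7% for *Afmid*.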
